A study of Mus musculus with 48 samples.

Results

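The 39 Hox genes of the mouse were followed in the cortex and whole brain of WT and Tg2576 mice. They were all genes whose symbol, read from the RefSeq transcript named for an array probe, was Hox with a cluster letter from a to d and a number, out of 19718 genes with a symbol on the mRNA arrays. The 39 genes had 43 probes among 55681 array features, and where a gene had more than 1 probe the brighter probe, by its mean over 24 arrays, stands for the gene. RNA from male mice was hybridized to 24 mRNA arrays and 24 miRNA arrays, 1 array per sample, with 3 samples in each of 8 groups per assay. The groups were WT mice of strain C57BL/6J and Tg2576 mice of strain Tg(APPSWE)2576Kha, at 10 and at 17 months of age, with either the cortex or the whole brain taken. Tg2576 mice carry a human amyloid precursor protein with the Swedish mutation under a hamster prion protein promoter, and WT mice carry no transgene. The labels do not say whether a cortex and a whole brain came from the same animal, nor that the replicates were separate animals, so that the p-values measure only the spread between these samples.

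Hox genes encode homeodomain transcription factors that set the position of cells along the axis of the body. They lie in 4 clusters, and genes at the same place in different clusters share a paralog number from 1 to 13. Low-numbered paralogs are switched on first in the embryo and reach forward into the hindbrain, while high-numbered paralogs are restricted to the spinal cord and the rest of the trunk. The forebrain, which gives rise to the cortex, lies in front of the domain of Hox expression. A whole brain also holds the pons and the medulla, which derive from the hindbrain and retain some Hox expression in the adult. On the arrays, cluster a (chromosome 6) had 11 genes, cluster b (chromosome 11) 10, cluster c (chromosome 15) 9 and cluster d (chromosome 2) 9.

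Levels are given as log2 of the signal over the 75th percentile of the array, so that 0 is the 75th percentile and a more negative value is dimmer. The 75th percentile of the intensity lay between 507 and 824 over the 24 arrays, and 34155 to 41087 features per array were well above background, a mark that the scanner software gives to a spot and that is called detection here. The lowest signal well above background stood between -6.44 and -4.94 on an array, and values near or under it have no order. Of 9965 features that were well above background on no array, the median difference of whole brain minus cortex was 0.21, so that a shift of this size also arose where no gene was detected. Of the 10 cortex markers 2 were called lower in whole brain and 0 higher, a share near the 19.9% of all features that were called lower, and the cortical layer gene Rorb fell by 0.42 on the log2 scale (limma adjusted p = 2.2e-05). Of the 12 cortex arrays, that of WT mice at 17 months replicate 2 had the highest summed level of the 10 cerebellum markers, 44.8 times the 75th percentile, against 18.6 to 39.9 on the others. None of the Hox genes that were called higher in whole brain was detected on it, which is no test of tissue carried over. In Tg2576 cortex at 17 months the summed level reached 15.6 for midbrain dopamine markers and 14.3 for thalamus markers. The highest whole brain arrays had 14.1 and 8.79. The arrays lay on 3 slides. Slide 1 held cortex only, slide 3 whole brain only, and slide 2 held 4 arrays of each tissue.

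In whole brain, 17 of the 39 Hox genes were detected on at least 1 of 12 arrays, and in cortex 11 were. A total of 21 genes were detected on no array of either tissue, and these included the 9 genes of cluster d. The other undetected genes were Hoxa2, Hoxa5, Hoxa10 and Hoxa11 in cluster a, Hoxb1, Hoxb8, Hoxb9 and Hoxb13 in cluster b, and Hoxc6, Hoxc9, Hoxc11 and Hoxc13 in cluster c. Their mean levels lay between -8.02 and -6.94 in cortex and between -7.62 and -6.89 in whole brain, and the median of their 21 differences was 0.27, beside the 0.21 of all undetected features.

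The number of Hox genes detected per array was 4 to 8 in cortex. In whole brain it was 13, 12 and 11 on the 3 arrays of WT mice at 17 months, and 5 to 8 on the other 9 arrays. The arrays of WT whole brains at 17 months were set apart by paralogs 1 to 5, of which they detected 6 or 7, while every other array of either tissue detected at most 3. Paralogs 6 to 13 were detected in like numbers throughout, 5 to 6 on the arrays of WT whole brains at 17 months and 3 to 7 over all 24 arrays. The plot of detected genes by array shows this division.

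**Figure D1:**
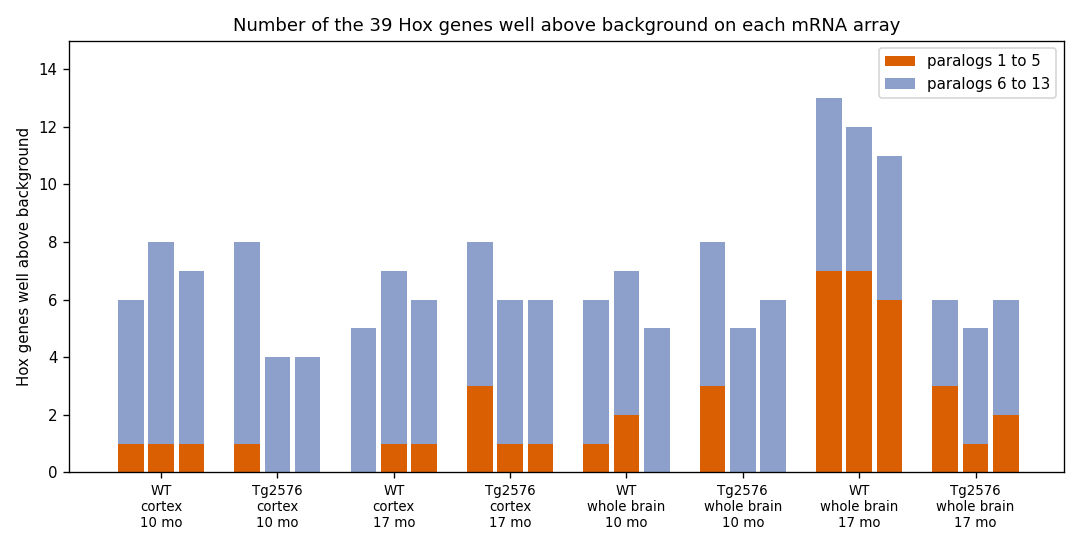
Number of the 39 Hox genes that were well above background on each of the 24 mRNA arrays, 3 bars per group, with paralogs 1 to 5 in orange and paralogs 6 to 13 in blue. The 3 bars of WT whole brain at 17 months reach 11 to 13, and all other bars end at 4 to 8.

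To compare the tissues, a contrast over all 24 arrays was taken, in which each group of genotype and age had the same weight. Testing required detection on 2 or more arrays in some group, and 13 of the 39 Hox genes met this filter. Of the 39, 6 were called higher in whole brain (limma, adjusted p under 0.05), among them Hoxc4, Hoxb5, Hoxb4, Hoxa3 and Hoxb2, and 2 were called lower, namely Hoxa9 and Hoxc12. Over all 40484 features tested, 17.6% were called higher and 19.9% lower in whole brain. Scaling to the median of each array in place of the 75th percentile moved the higher share of all calls from 47.0% to 59.7% and left the same numbers of Hox genes called. Hoxa3, Hoxb2, Hoxb4 and Hoxb5 passed the filter only through WT whole brain at 17 months, where they were high, so that their passing and their difference are not independent. The same holds for Hoxc4, which passed only through the whole brains of both genotypes at 17 months, where it was high. In bulk tissue, fewer cells that express a gene cannot be told apart from less RNA per cell. Cortex and whole brain overlapped over their 12 arrays for each gene called.

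Hoxc4, a paralog 4 gene of the hindbrain and cervical spinal cord, showed the largest difference. It was detected on 0 of 12 cortex arrays, where the lowest, median and highest values were -8.33, -7.79 and -6.83, and on 8 of 12 whole brain arrays, where they were -8.09, -4.86 and -2.58. The difference was 2.67 on the log2 scale (SE 0.37, limma adjusted p = 3.4e-05). Since the cortex values were below background, this gives only a bound, and Hoxc4 was at least 1.68-fold higher in whole brain. In WT whole brain at 17 months the 3 arrays read -3.04, -3.33 and -2.58, in Tg2576 whole brain at 17 months -3.40, -5.06 and -4.91, in WT whole brain at 10 months -7.75, -4.81 and -6.23, and in Tg2576 whole brain at 10 months -4.65, -8.09 and -6.73. All 6 whole brain arrays at 17 months detected the gene, against 2 of the 6 at 10 months. Without the WT groups at 17 months, a contrast chosen after seeing the data, Hoxc4 was the 1 Hox gene still called higher in whole brain, by 1.94 (limma adjusted p = 0.00974). There it passed the filter only through Tg2576 whole brain at 17 months, so its passing and its difference are not independent.

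Hoxb5, the paralog 5 gene of cluster b, was also detected on 0 of 12 cortex arrays, with values from -8.39 to -6.57 and a median of -7.65. On the 12 whole brain arrays it ranged from -8.10 to -2.85 with a median of -5.79, and it was detected on 5. The difference was 2.19 (SE 0.33, limma adjusted p = 7.3e-05), which bounds the fold at no less than 1.31. The values were -3.27, -3.83 and -2.85 in WT whole brain at 17 months and -3.81, -5.98 and -5.60 in Tg2576 whole brain at 17 months. At 10 months they were -6.94, -6.02 and -6.42 in WT and -5.30, -8.10 and -6.84 in Tg2576 whole brain. The WT arrays at 17 months and replicate 1 of the Tg2576 arrays at 17 months stood above the other 8 whole brain arrays.

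Hoxb4, next to Hoxb5 in the cluster and a gene with a sharp front border of expression in the hindbrain of the embryo, was detected on 0 cortex arrays and on 3 whole brain arrays. In cortex its lowest, median and highest values were -8.29, -7.98 and -7.37, and in whole brain -7.97, -6.60 and -4.12. The 3 arrays that detected it were those of WT whole brain at 17 months, at -4.12, -4.52 and -4.20. Its fitted difference was 1.69 (SE 0.25, limma adjusted p = 5.8e-05), and no fold is given because the mean of whole brain did not exceed the lowest signal well above background.

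The bases before the annotated start of Hoxb4 and of Hoxc4, the pair of paralog 4 genes called higher in whole brain, are shown from RefSeq (build GRCm38.p6), each the 250 bases upstream, 5′ to 3′ on the strand of the gene. The Hoxb4 stretch is chr11:96318017-96318266 on the plus strand and the Hoxc4 stretch is chr15:103034145-103034394 on the plus strand. Capitals mark AGGTCA, the half-site of retinoic acid receptors, or its reverse complement, since retinoic acid is a known inducer of low-numbered Hox genes in the embryo.
Hoxb4: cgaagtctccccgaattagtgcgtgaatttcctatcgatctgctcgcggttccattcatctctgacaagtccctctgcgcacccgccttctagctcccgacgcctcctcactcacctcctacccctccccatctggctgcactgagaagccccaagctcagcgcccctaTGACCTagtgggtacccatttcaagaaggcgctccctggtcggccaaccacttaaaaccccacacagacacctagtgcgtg
Hoxc4: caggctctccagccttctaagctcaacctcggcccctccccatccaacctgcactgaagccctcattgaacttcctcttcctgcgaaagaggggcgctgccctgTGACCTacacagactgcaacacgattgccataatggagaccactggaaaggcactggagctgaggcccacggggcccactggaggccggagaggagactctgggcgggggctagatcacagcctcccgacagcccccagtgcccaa
The match began 81 bases before the start of Hoxb4 and 146 bases before that of Hoxc4. AGGTCA was found on either strand in the 250 bases of 6 of the 22 Hox genes with a sequence, or 27.3%, and in 14.02% of 32851 promoter sequences of the genome. The other 4 Hox genes with it were Hoxd3, Hoxd4, Hoxd8 and Hoxd10, which were detected on no array. TGATNNAT, a site bound by Hox proteins with their partner Pbx, was found in 4 of the 22 genes (Hoxa2, Hoxb1, Hoxb8 and Hoxd11) and in 7.68% of all promoters, and in neither sequence shown. These motifs were chosen after others had been looked at.

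Hoxa3, a paralog 3 gene of the caudal hindbrain, was detected on 0 cortex arrays, with values from -8.28 to -6.55 and a median of -7.71. In whole brain it ranged from -7.96 to -3.91 with a median of -6.06, and the 3 arrays that detected it were again those of WT mice at 17 months, at -5.11, -4.72 and -3.91. The fitted difference was 1.69 (SE 0.23, limma adjusted p = 2.8e-05), with no fold for the same reason as for Hoxb4. Tg2576 whole brain at 17 months read -5.74, -6.34 and -5.65, under background.

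Hoxb2 belongs to the paralogs that act furthest forward in the hindbrain. It was detected on 1 cortex array, of a Tg2576 mouse at 17 months, and on 6 whole brain arrays. Its lowest, median and highest values were -8.07, -7.28 and -5.59 in cortex and -7.23, -5.01 and -3.84 in whole brain, and the fitted difference was 1.75 (SE 0.35, limma adjusted p = 0.00089). No fold is given, since 11 of the 12 cortex arrays did not detect it. The 3 arrays of WT whole brain at 17 months detected it at -4.73, -4.90 and -3.84, and 1 array of each other whole brain group did.

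**Figure D2:**
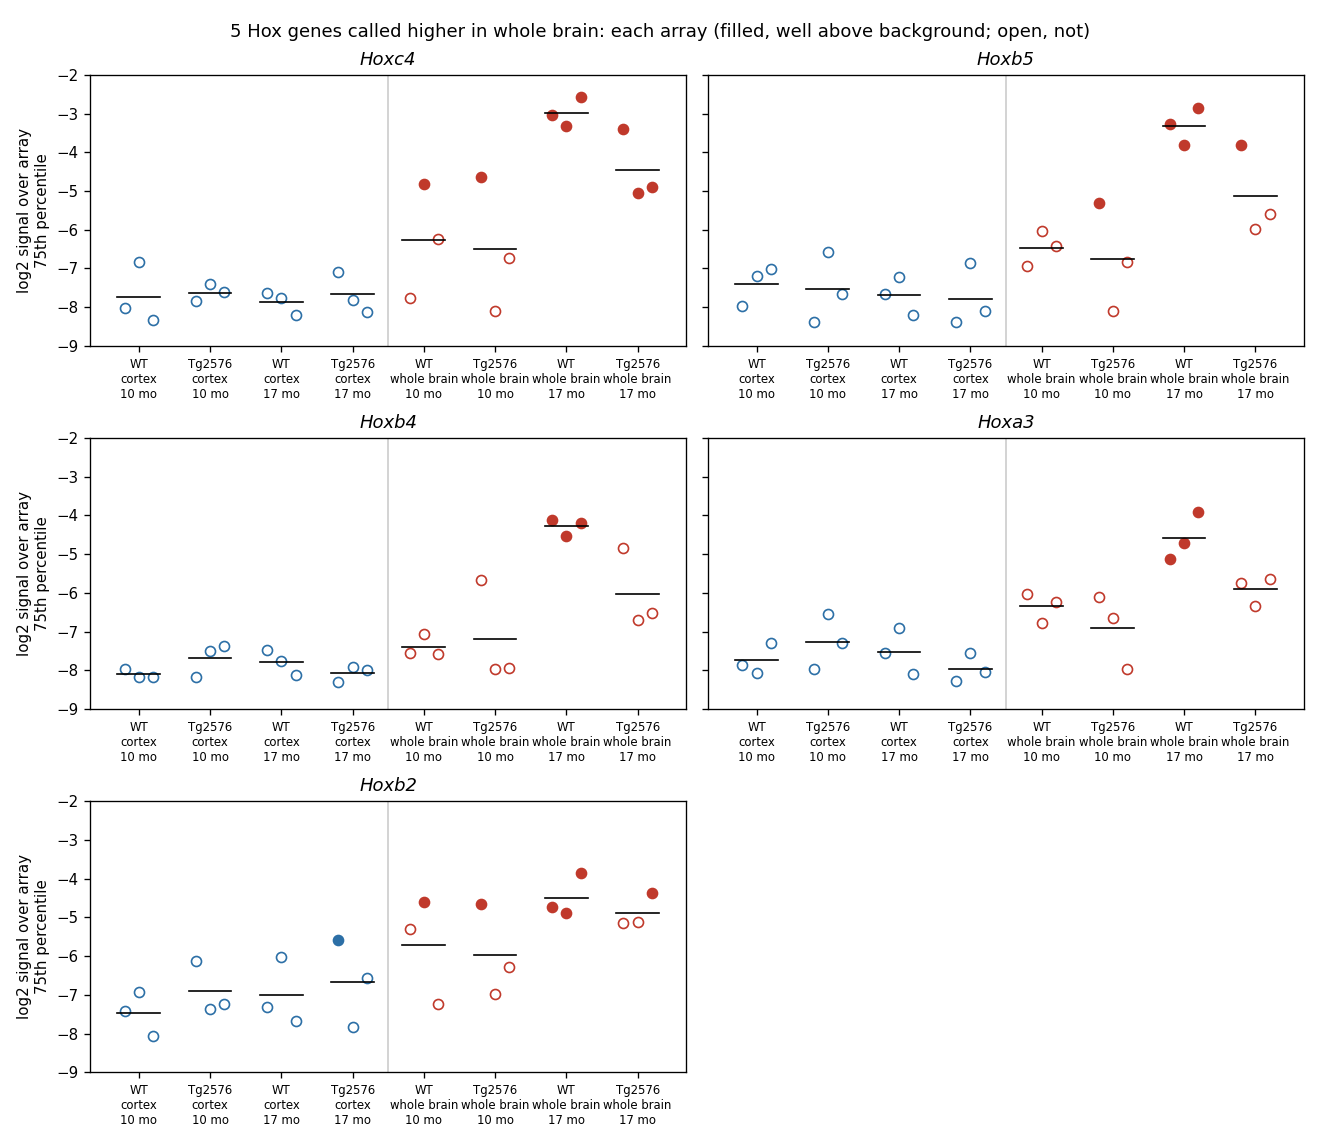
Level of 5 Hox genes on each mRNA array (y axis, log2 signal over the 75th percentile of the array) in the 8 groups, with cortex in blue, whole brain in red, filled points well above background, open points not, and black lines at the group mean. The 3 points of WT whole brain at 17 months are filled for all 5 genes, and 0 cortex points are filled for Hoxc4, Hoxb5, Hoxb4 and Hoxa3.

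Within each genotype and age the tissues lay on different slides, so that tissue and slide cannot be told apart there. With the slide as a block in the contrast over 24 arrays, Hoxc4 was still called higher by 4.85, Hoxb5 by 4.15, Hoxb4 by 3.55 and Hoxa3 by 3.07 on the log2 scale, with limma adjusted p between 0.0037 and 0.0403. Hoxb2 differed by 3.75 with a limma adjusted p of 0.0956. This fit rests on the 2 groups that lie on more than 1 slide, WT cortex at 17 months and Tg2576 whole brain at 10 months. Each of these groups had only 1 array on slide 2. For Tg2576 whole brain at 10 months that array had Hoxc4 at -4.65, against -8.09 and -6.73 on slide 3, so the size of these differences depends on it. Another background correction (normexp with an offset, which compresses dim values) kept the calls of these 5 genes, made without the block, at smaller differences, from 0.30 for Hoxb2 to 0.70 for Hoxc4. Within slide 2, with 4 arrays of each tissue, Hoxc4 differed by 1.94 (SE 0.66, limma adjusted p = 0.0673) and Hoxb2 by 1.47 (SE 0.70, limma adjusted p = 0.164). Hoxb5 had means of -7.89 in cortex and -6.17 in whole brain there, Hoxa3 of -7.99 and -6.28 and Hoxb4 of -8.08 and -6.97, and these 3 genes did not pass the filter within that slide.

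Of the 6 Hox genes detected on 8 or more cortex arrays, 5 had paralog numbers of 6 or above. Hoxa9, a paralog 9 gene of the trunk that is also active in blood progenitors, was detected on all 24 arrays, with values from -4.06 to -3.68 (median -3.89) in cortex and from -4.80 to -3.94 (median -4.37) in whole brain. It was 1.38-fold lower in whole brain (-0.47 on the log2 scale, SE 0.08, limma adjusted p = 0.00026). The second Hoxa9 probe was detected on 11 cortex and 7 whole brain arrays and was lower by 0.34 (limma adjusted p = 0.0485). Hoxc12, a gene at the far end of cluster c, was detected on 12 cortex arrays and on 11 whole brain arrays, with values from -4.39 to -3.38 (median -3.93) and from -5.22 to -3.93 (median -4.34). It was 1.41-fold lower in whole brain (-0.49 on the log2 scale, SE 0.12, limma adjusted p = 0.00496). With normexp background correction Hoxc12 differed by -0.12 (limma adjusted p = 0.0848). With the slide as a block both calls were lost, at -0.49 for Hoxa9 (limma adjusted p = 0.435) and 0.17 for Hoxc12 (limma adjusted p = 0.888), and within slide 2 the differences were -0.36 (limma adjusted p = 0.105) and -0.17 (limma adjusted p = 0.372).

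Hoxa7, a paralog 7 gene of the thoracic region, was detected on all 24 arrays. Its values ran from -4.79 to -3.95 (median -4.42) in cortex and from -5.02 to -4.04 (median -4.54) in whole brain, a difference of -0.094 (SE 0.10, limma adjusted p = 0.508). Hoxa6, its neighbour, was detected on 12 cortex arrays, from -5.36 to -4.52 (median -4.78), and on 11 whole brain arrays, from -5.18 to -3.72 (median -4.70), with a difference of 0.19 (limma adjusted p = 0.249). Hoxb6 was detected on 10 cortex arrays, from -5.23 to -4.53 (median -4.96), and on 8 whole brain arrays, from -5.36 to -3.84 (median -4.90), with a difference of 0.053 (limma adjusted p = 0.808).

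Hoxa4 stood apart from the other paralog 4 genes. It was detected on 8 cortex arrays and on 3 whole brain arrays, with values from -6.45 to -4.96 (median -5.24) and from -6.34 to -4.46 (median -5.39), and the difference was -0.11 (SE 0.17, limma adjusted p = 0.656). Hoxa13, the last of the 13 genes tested, was detected on 4 cortex arrays and 1 whole brain array and differed by -0.050 (limma adjusted p = 0.918). The second Hoxa13 probe was detected on 0 arrays of either tissue. None of Hoxa4, Hoxa6, Hoxa7, Hoxa13 and Hoxb6 was called between the tissues.

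**Figure D3:**
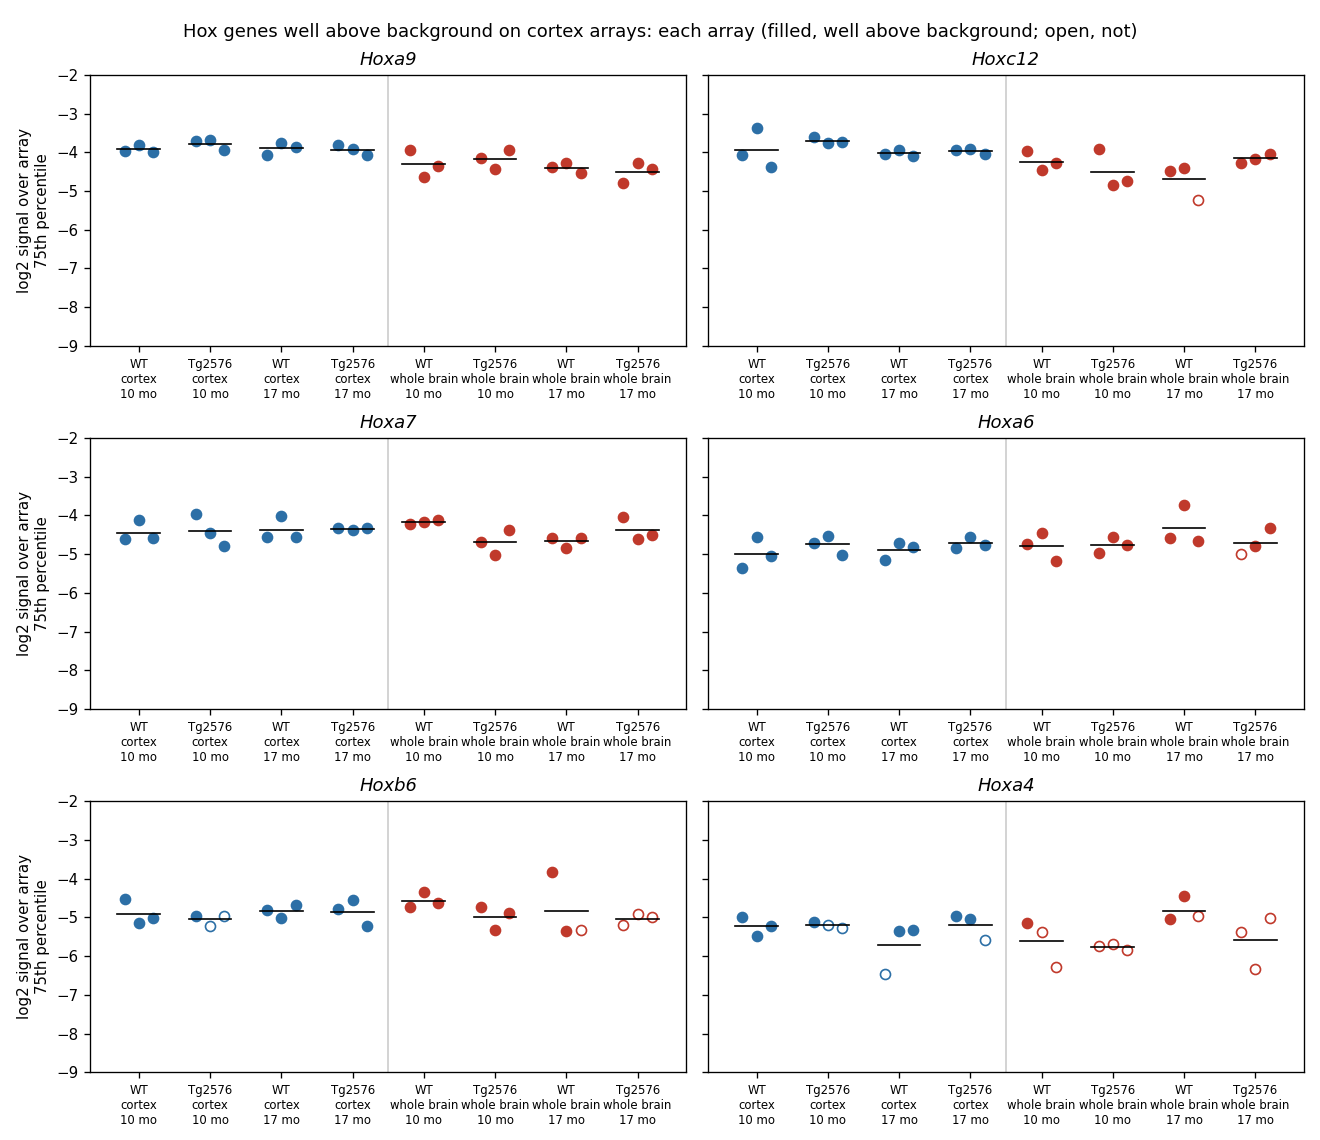
Level of 6 Hox genes that were detected on at least 8 of 12 cortex arrays (y axis, log2 signal over the 75th percentile of the array) in the 8 groups, drawn with cortex in blue, whole brain in red, filled points well above background, open points not, and black lines at the group mean. Hoxa9 and Hoxa7 are filled on all 24 arrays, and the 3 points of WT whole brain at 17 months do not stand above the rest for Hoxa9, Hoxc12 or Hoxa7.

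Read by paralog number, the genes called higher in whole brain were 6 of the 15 genes of paralogs 1 to 5, 0 of the 8 genes of paralogs 6 to 8 and 0 of the 16 genes of paralogs 9 to 13. The genes called lower were 2 of those 16. Of these classes only 7, 3 and 3 genes were tested, and over all features tested 17.6% were called higher and 19.9% lower, so that most of the genes of paralogs 6 to 13 could not be called. The median difference of the tissue means was 0.65 over paralogs 3 to 5, 0.16 over paralogs 6 to 8 and 0.23 over paralogs 9 to 13, of which the last lies at the 0.21 of undetected features. Within paralogs 1 to 5, the genes of cluster d were undetected, and in cluster a Hoxa2 and Hoxa5 were, although Hoxa3 was called. In cluster b 3 of the 10 genes were called higher, in cluster c 1 of 9 and in cluster d 0 of 9.

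**Figure D4:**
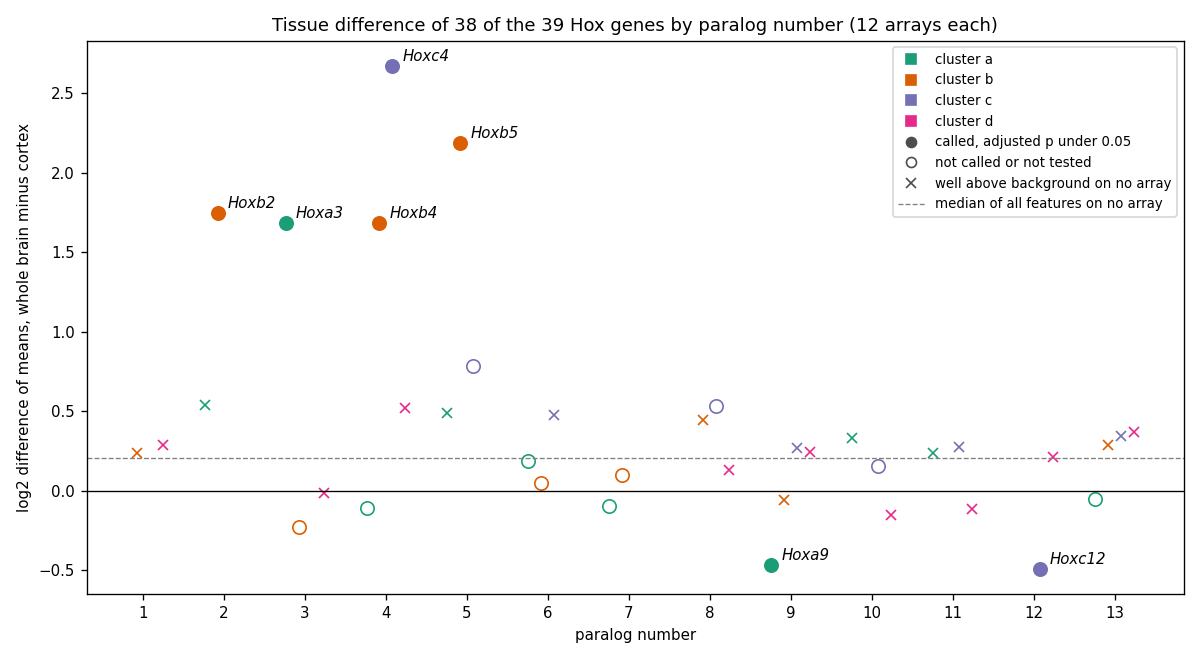
Difference of the mean level in whole brain and cortex (y axis, log2, 12 arrays each) for 38 of the 39 Hox genes by paralog number (x axis), coloured by cluster, with filled points called, open points not called or not tested, and crosses for genes well above background on no array. The 5 genes shown as called higher have paralog numbers 2 to 5, and the 2 called lower have numbers 9 and 12. The dashed line marks the median of undetected features at 0.21.

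Further genes were detected on 1 whole brain array at most and not tested. Replicate 3 of WT whole brain at 17 months detected Hoxc10, a lumbar paralog, at -1.92, where the other 23 arrays ranged from -7.84 to -5.07 with 2 cortex arrays among them detecting it, and Hoxc8 at -4.38, where the others ranged from -8.20 to -6.07. Replicate 1 of the same group detected Hoxb7 at -5.11, where the others ranged from -8.02 to -5.93. Replicate 1 of Tg2576 whole brain at 17 months detected Hoxc5, the neighbour of Hoxc4, at -3.97, where the others ranged from -7.80 to -5.36. Hoxb3 was detected on 1 cortex array and on 0 whole brain arrays, and its second probe on 0 arrays of either tissue. In whole brain these values rest on 1 array each. Replicate 3 of WT whole brain at 17 months also had the highest Hoxc4, Hoxb5, Hoxa3 and Hoxb2 of its group, and whether spinal cord was taken with the brain was not stated in the labels and not tested. Without it the difference between the tissues over the other 23 arrays was 2.62 for Hoxc4, 2.13 for Hoxb5, 1.68 for Hoxb4, 1.67 for Hoxb2 and 1.60 for Hoxa3, and each was still called (limma adjusted p from 6.9e-05 to 0.0021).

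Taken within each genotype and age, the tissue difference was called for Hox genes at 17 months and not at 10 months. Hoxc4, Hoxb5, Hoxb4, Hoxb2 and Hoxa3 did not pass the filter at 10 months, so they could not be called there. In Tg2576 mice at 17 months only Hoxc4 of these passed it. In WT mice at 17 months, 5 of the 39 genes were called higher in whole brain, where 3.86% of all features were, and 1 was called lower, where 6.45% were (10.3% in all). With scaling to the array median the higher share of all calls was 54.4% instead of 37.4%. Hoxc4 was at least 6.22-fold higher (4.88 on the log2 scale, limma adjusted p = 0.0078), Hoxb5 at least 4.94-fold (4.38, adjusted p = 0.0172), Hoxb4 at least 2.53-fold (3.51, adjusted p = 0.0106), Hoxb2 at least 2.19-fold (2.52, adjusted p = 0.0346) and Hoxa3 at least 2.06-fold (2.94, adjusted p = 0.0210). Each of these 5 genes was detected on 3 of 3 whole brain arrays and on 0 of 3 cortex arrays, and their values did not overlap. They passed the filter only through these whole brain arrays, so their passing and their difference are not independent. No share of all features without overlap is given, so the lack of overlap adds nothing to the calls. Hoxa9 was lower by 0.50 (limma adjusted p = 0.0444), also without overlap. Without replicate 1 of the WT whole brains 0 genes were called higher, without replicate 3 it was 1, without replicate 2 it was 2 and without replicate 1 of the WT cortices it was 2.

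In Tg2576 mice at 17 months, Hoxc4 was called higher in whole brain, at least 2.92-fold (3.22 on the log2 scale, SE 0.49, limma adjusted p = 0.0425), as were 0.448% of all features, while 1.52% were called lower and 1.97% in all. Hoxc4 passed the filter only through these whole brain arrays, so its passing and its difference are not independent. The call was lost when any 1 of the 6 arrays was left out, with differences between 2.69 and 3.52. At 10 months, limma called 0 of 7 Hox genes tested in WT mice, with 0 at an unadjusted p under 0.05. In Tg2576 mice at 10 months it called 0 of 5 tested, with 2 at an unadjusted p under 0.05. Of all features 0.0101% and 0% were called. The change of the tissue difference with age was called by limma for 0 of 13 Hox genes tested, 5 of which had an unadjusted p under 0.05, and for 0.388% of all features. It was 2.18 for Hoxb4 (adjusted p = 0.0546), 2.66 for Hoxb5 (adjusted p = 0.0672), 2.75 for Hoxc4 (adjusted p = 0.0791) and 1.61 for Hoxa3 (adjusted p = 0.0914), all larger at 17 months. With quantile normalization Hoxb4 passed, at 2.19 (limma adjusted p = 0.0387). The change with genotype was called by limma for 0 genes, with 3 at an unadjusted p under 0.05 and a smallest adjusted p of 0.468.

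The ages were compared directly within each genotype and tissue, and the WT whole brains at 17 months used here are the same arrays as in the tissue comparisons. In WT whole brain, 4 Hox genes were called higher at 17 months than at 10 months, beside 12.7% of all features, and 1 was called lower, beside 15.2% (27.8% in all). The 4 called higher passed the filter only through the arrays of 17 months, so their passing and their difference are not independent. With scaling to the array median the higher share of all calls was 67.2% instead of 45.6%. Hoxb5 was at least 4.41-fold higher (3.15 on the log2 scale, SE 0.32, limma adjusted p = 0.0046), Hoxb4 at least 2.26-fold (3.12, SE 0.17, adjusted p = 0.0039) and Hoxa3 at least 1.83-fold (1.77, SE 0.34, adjusted p = 0.0162). Hoxc4, detected on 1 of 3 arrays at 10 months, was higher by 3.28 (SE 0.71, limma adjusted p = 0.0215), and this call was lost without replicate 3 at 10 months or replicate 1 or 3 at 17 months (adjusted p = 0.0583, 0.0541 and 0.0644). Hoxa7 was lower by 0.50 (adjusted p = 0.0145), at -4.59, -4.85 and -4.58 against -4.23, -4.17 and -4.11. The WT whole brains of 10 months lay on slide 2 and those of 17 months on slide 3, so that age and slide cannot be told apart.

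Slide 3 alone held low as well as high values. The 2 Tg2576 whole brains of 10 months on it had Hoxc4 at -8.09 and -6.73, under the 3 Tg2576 whole brains of 17 months on the same slide (-5.06 to -3.40) and the 3 WT whole brains of 17 months (-3.33 to -2.58). In the same order Hoxb5 read -8.10 to -6.84, -5.98 to -3.81 and -3.83 to -2.85, and Hoxb4 read -7.97 to -7.93, -6.70 to -4.84 and -4.52 to -4.12. Replicate 1 of Tg2576 whole brain at 10 months lay on slide 2, with Hoxc4 at -4.65, Hoxb5 at -5.30 and Hoxb4 at -5.67. Each of these values lay within the range of the Tg2576 whole brains of 17 months. In Tg2576 whole brain, limma called 0 of 6 Hox genes tested between the ages, with 0 at an unadjusted p under 0.05 (12.1% of all features were called). Hoxc4 was higher at 17 months by 2.03 (limma adjusted p = 0.181). Hoxb5, Hoxb4, Hoxa3 and Hoxb2 did not pass the filter in Tg2576 whole brain and could not be called. In cortex, limma called 0 of 7 Hox genes tested between the ages in WT mice, with 0 at an unadjusted p under 0.05. It called 0 of 6 tested in Tg2576 cortex, with 1 at such a p. Of all features 4.56% and 10.3% were called. Hoxc4, Hoxb5, Hoxb4, Hoxa3 and Hoxb2 did not pass the filter in cortex.

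The genotypes were compared within each tissue and age, and limma called 0 Hox genes and 0 features (0%) in each of the 4 comparisons. The number of Hox genes with an unadjusted p under 0.05 was 0 in cortex at either age, 1 in whole brain at 10 months and 4 in whole brain at 17 months, out of 12 tested. In the latter, Hoxb5 differed by -1.82 in Tg2576 against WT mice (SE 0.59), Hoxb4 by -1.74 (SE 0.49), Hoxc4 by -1.47 (SE 0.46) and Hoxa3 by -1.33 (SE 0.34), with limma adjusted p from 0.342 to 0.352. For Hoxb4, Hoxc4 and Hoxa3 the 3 Tg2576 arrays lay below the 3 WT arrays. For Hoxb5 replicate 1 of the Tg2576 arrays reached into the WT range. Hoxc12 went the other way, with the 3 Tg2576 arrays (-4.27 to -4.05) above the 3 WT arrays (-5.22 to -4.39). Of all features tested by limma in whole brain at 17 months, 12.9881% had an unadjusted p under 0.05. No share of all features without overlap is given, so the lack of overlap adds nothing to these differences.

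Markers of the medulla and pons were set beside these values, as a list of 15 genes of which 14 were on the array and 12 were tested. Of the 15, 4 were called higher in whole brain over all 24 arrays, with a median difference of 0.30 over those tested, beside 17.6% of all features called higher and a median of 0.21 over undetected features. They were Slc6a4, the serotonin transporter, at 2.39 (limma adjusted p = 0.0124), Tph2, the enzyme of serotonin synthesis in the raphe, at 2.01 (adjusted p = 0.0164), Glra1, a glycine receptor subunit of brainstem and spinal cord, at 1.73 (adjusted p = 0.00023), and Prph, an intermediate filament of neurons with peripheral axons, at 0.65 (adjusted p = 0.0049). The sensory neuron gene Tlx3 was not detected on enough arrays to be tested. The summed level of the 14 markers ran from 1.92 to 3.73 on the cortex arrays. It was 4.39, 4.13 and 6.41 in WT whole brain at 17 months, 4.54 on replicate 1 and 3.04 on the lowest of the 3 arrays of Tg2576 whole brain at 17 months, 2.86, 2.78 and 2.85 in WT whole brain at 10 months and 2.87, 2.06 and 2.45 in Tg2576 whole brain at 10 months. The 3 arrays with the highest Hox levels were thus among the 4 with the highest marker levels, and the fourth was replicate 1 of Tg2576 whole brain at 17 months, which had the highest Hoxc4, Hoxb5 and Hoxb4 of its group.

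Between WT whole brains of 17 and 10 months, 3 of the 15 medulla and pons markers were called higher and 0 lower, with a median of 0.90 over the 12 tested, beside 12.7% of all features called higher, namely Glra1 by 1.43 (limma adjusted p = 0.0049), Slc18a3, the vesicular acetylcholine transporter, by 1.21 (adjusted p = 0.0187) and Chat, the enzyme of acetylcholine synthesis, by 0.48 (adjusted p = 0.0103). Slc18a3 and Chat were not called between the tissues over all arrays, at -0.060 (limma adjusted p = 0.781) and 0.12 (limma adjusted p = 0.433). In Tg2576 whole brain Slc18a3 was also called higher at 17 months, by 1.17 (limma adjusted p = 0.0199), and Glra1 and Chat were not called. Other regions also differed between the tissues. Over all arrays, 7 of 10 cerebellum markers and 5 of 6 midbrain dopamine markers were called higher in whole brain, as were 2 of 6 of the thalamus and 1 of 7 of the choroid plexus, while 0 of the markers of olfactory bulb, blood, skeletal muscle and pituitary were called. In WT whole brain with age, 1 of 10 cerebellum markers, 3 of 6 thalamus markers and 4 of 10 cortex markers were called higher, and 0 of the 6 midbrain dopamine markers were. The cerebellum markers not called ranged from -0.039 for Pvalb to 1.96 for Cbln3, with Pcp2 at 1.61, En2 at 1.35 and Fat2 at 1.22. A rise of this size with age was thus not particular to the medulla and pons markers. The part of hindbrain or other tissue in the Hox differences was not tested.

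**Figure D5:**
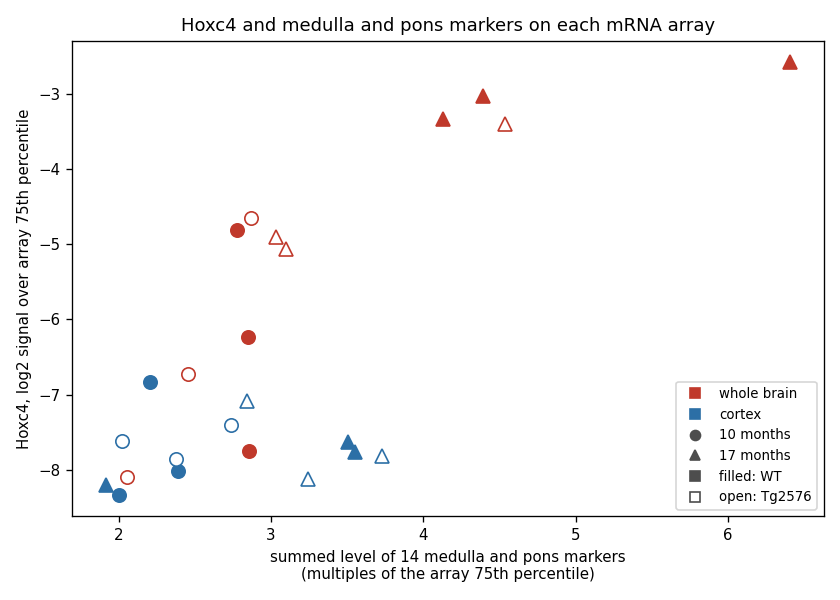
Level of Hoxc4 (y axis, log2 signal over the 75th percentile of the array) against the summed level of 14 medulla and pons markers (x axis, multiples of the 75th percentile) on each of the 24 mRNA arrays, with cortex in blue, whole brain in red, 10 months as circles, 17 months as triangles, WT filled and Tg2576 open. The 3 filled red triangles lie at marker levels of 4.13 to 6.41 and the cortex points stay at or under -6.83 at marker levels of up to 3.73.

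Genes that act with Hox proteins or on Hox genes were taken from lists. Hox proteins bind DNA with the cofactors Pbx, Meis and Pknox, and all 9 genes of this kind were tested. In whole brain against cortex 1 was called higher and 2 lower. Of all features tested 17.6% were called higher and 19.9% lower, and none of the lists of cofactors, regulators, Polycomb and Trithorax genes and cluster neighbours is read as standing apart from that. Pbx2 differed by 0.089 (limma adjusted p = 0.0495) and Meis2 by -0.31 (adjusted p = 0.0266), with a median of 0.0023 over the list and -0.0096 over all features tested. Of 14 regulators of Hox expression in the hindbrain, 10 were tested, 2 were called higher and 1 lower, with a median of 0.073. Aldh1a2, which makes retinoic acid and in the adult brain marks the meninges (4 of 8 meningeal and fibroblast markers were also called higher), was higher by 0.41 (limma adjusted p = 0.0013), Cyp26b1, which breaks it down, by 0.16 (adjusted p = 0.0453), and the retinoic acid receptor Rarb was lower, at -0.24 (adjusted p = 0.0258).

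Polycomb and Trithorax proteins keep Hox genes silent or active. Of 15 such genes 13 were tested, 2 were called higher in whole brain and 0 lower, namely Ring1, an ubiquitin ligase of Polycomb complexes, by 0.28 (limma adjusted p = 0.00056), and Men1, a partner of Trithorax-type methyltransferases, by 0.35 (adjusted p = 0.0298), with a median of 0.029. The genes just outside the clusters were read in the same way. Of 15 neighbours 12 were tested, and 2 were called higher, with a median of 0.061 over those tested. Evx1, a homeobox gene beside Hoxa13 that is expressed in spinal interneurons, was higher by 1.38 (limma adjusted p = 0.0121). Among the whole brain groups, only that of the older WT mice could have carried Evx1 past the filter. Its passing and its difference may therefore not be independent. Snx11 was higher by 0.15 (limma adjusted p = 0.0129). Of 11 non-coding RNAs of the clusters 2 were on the array and 1 was tested, Hoxa11os, which differed by -0.013 (limma adjusted p = 0.965).

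With age in WT whole brain 12.7% of all features were called higher and 15.2% lower, and the same lists held some retinoic acid genes among the changes. Of the 14 regulators, 4 were called higher at 17 months and 0 lower, with a median of 0.57 over 9 tested, among them Rara by 0.91 (limma adjusted p = 0.0045), Cyp26b1 by 0.79 (adjusted p = 0.0077) and Rarg by 0.68 (adjusted p = 0.0056). In Tg2576 whole brain Rara (0.98, adjusted p = 0.0148), Cyp26b1 (0.48, adjusted p = 0.0319) and Rarg (0.44, adjusted p = 0.0458) were called higher at 17 months too. Rarb and Aldh1a2 were called in neither genotype, at 0.017 and 0.12 in WT and -0.16 and -0.18 in Tg2576 whole brain. The change of the tissue difference with age was 0.26 for Rara, 0.21 for Rarg and 0.15 for Cyp26b1. None of these changes was called by limma, so a rise particular to whole brain was not shown. Of the 9 cofactors, Pbx2 (0.35, adjusted p = 0.0144) and Pknox2 (0.32, adjusted p = 0.0245) were called higher in WT whole brain and 1 other gene lower, and Pbx2 was again higher in Tg2576 whole brain (0.36, adjusted p = 0.0372). Of the Polycomb and Trithorax genes in WT whole brain 3 were called higher and 2 lower, among them Ring1 at 0.51 (adjusted p = 0.0078), and of the cluster neighbours 0 were called higher and 2 lower, led by Tax1bp1 at -0.45 (adjusted p = 0.0090). These comparisons share the limit of slide and age given above for WT mice.

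The clusters also hold miRNAs of the families miR-10, miR-196 and miR-615, which are transcribed with the Hox genes around them. They are shown because Hoxb4 and Hoxb5, both called higher in whole brain, flank miR-10a. In RefSeq (build GRCm38.p6), miR-10a lies between Hoxb5 and Hoxb4, at chr11:96317186-96317208 on the plus strand, and inside the annotated span of Hoxb3, and miR-10b lies inside those of Hoxd3 and Hoxd4, at chr2:74726074-74726096 on the plus strand. miR-196a comes from a copy between Hoxb13 and Hoxb9 and another between Hoxc10 and Hoxc9, miR-196b lies between Hoxa9 and Hoxa10, and miR-615 lies inside Hoxc5. The mature sequences are given 5′ to 3′ with the seed, bases 2 to 8, in capitals.
mmu-miR-10a-5p: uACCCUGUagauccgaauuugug
mmu-miR-10b-5p: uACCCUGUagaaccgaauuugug
mmu-miR-196a-5p: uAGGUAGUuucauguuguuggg
mmu-miR-196b-5p: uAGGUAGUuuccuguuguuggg
mmu-miR-615-3p: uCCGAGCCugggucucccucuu
miR-10a and miR-10b share a seed, miR-196a and miR-196b share another, and miR-615-3p has its own. On the miRNA arrays these 5 miRNAs and the 4 other arms of the families were well above background on 0 of 24 arrays, so that the 9 miRNAs stood at the common floor of -5.66 in every group and were not tested. On the same arrays 241 to 388 miRNAs were detected per array, 281 were tested, and 14.6% were called higher in whole brain. A difference between the tissues was thus not detectable for these miRNAs at this signal over background.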

How the data were processed

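Per the labels, total RNA was labelled with Cy3 and read on 1-colour arrays with Agilent Feature Extraction 10.7.3.1. The authors deposited spot intensity values with the background subtracted and no normalization between arrays, and tables of log2 values. At least 99.8% of the deposited log2 values of an mRNA array lay within 0.01 of log2 intensity minus a constant near the 75th percentile. Outlier spots were dropped, spots of a probe averaged, and the 75th percentile of each array subtracted on the log2 scale. For miRNAs that percentile came from the 403 probes detected on every array, and lower values were set to a floor. limma 3.58.1 in R 4.3.3 was fitted across all features, and calls were made at a Benjamini-Hochberg adjusted p of 0.05. Fold bounds set the brighter group against the higher of the dim signal and the lowest signal well above background. The number of arrays limits the precision. Symbols came from RefSeq by transcript. Members described in full are the 12 with the largest tissue difference among those called, those called lower in whole brain, those detected on 6 or more of 12 cortex arrays, and those called for age, genotype or an interaction. Genes of other lists were named where called, after their values were seen. Alternatives were other scalings and the authors' log2 table, normexp background correction (offset 50), other filters, probes averaged, the replicate number or slide as a block, the t-test of the methods, 1 model over 24 arrays, and leaving out each array. The models were tested on simulated data. The members and lists were chosen with earlier results of these data known. Some genes, 1 Hox gene among them, are counted in totals but not reported here.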

Additional observations from a re-analysis of the deposited data

How the results depend on the processing

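Of 607 values of single Hox genes under alternatives, 537 kept their direction and their call, 64 lost the call and 6 reversed. Reversed were Hoxa4 (0.045) and Hoxa7 (0.046) with normexp, Hoxa6 (-0.086), Hoxa7 (0.10) and Hoxc12 (0.17) with the slide as a block, and Hoxb6 without WT whole brain at 17 months replicate 1 (-0.073, of a range up to 0.12 when each array was left out). The 6 Hox genes called higher in whole brain over all arrays were 6 in number when each array was left out, 5 with probes averaged, the slide as a block or the t-test of the methods, 16 with no filter and 1 without the WT groups at 17 months, a choice made after seeing the data. With normexp the Hoxc4 difference was 0.70 instead of 2.67, since its offset compresses dim values. Of the 16 genes called without a filter, 10 were detected on no array. In WT mice at 17 months the 5 genes called higher were 3 with normexp or the t-test of the methods, 1 with no filter, 0 with the replicate block and 0 to 5 when each array was left out. In Tg2576 mice at 17 months the 1 gene was 0 with the replicate block or the t-test of the methods, 0 whenever an array was left out, and 16 with no filter, of which 13 were detected on no array. The 75th percentile was lowest in Tg2576 whole brain at 17 months (507 to 612), where features detected on no array had median levels of -7.24 to -6.99, against -8.04 to -7.69 in Tg2576 cortex at 17 months. For age in WT whole brain the 5 calls were 3 with normexp or the t-test of the methods and 4 to 6 when each array was left out. For age in Tg2576 whole brain the 0 calls were 14 with no filter, 1 with the slide as a block (Hoxc12, 0.64), 1 in a model over all 24 arrays (Hoxc4, 2.03) and 0 to 1 when each array was left out. With no filter 3 features were called in WT mice at 17 months instead of 3917, 7208 in Tg2576 mice at 17 months instead of 760, 5244 for age in WT whole brain instead of 10479, 10142 for age in Tg2576 whole brain instead of 4591, and 17 for tissue by age instead of 157. For the change of the tissue difference with age the calls were 1 with quantile normalization or a stricter filter, Hoxb4 in both, and 0 to 1 when each array was left out. In all other comparisons, with the 9 miRNAs, the count of calls was 0 under every alternative. At their threshold of p and fold, the t-test of the methods gave 6 Hox genes between the tissues, 5 in WT mice at 17 months, 4 for age in WT whole brain and 2 for genotype in whole brain at 17 months. Pairs of arrays with the same replicate number had deviations that correlated at -0.16 to 0.19 over the comparisons. Between the tissues of Tg2576 mice at 17 months all 3 pairs were positive, at 0.020, 0.091 and 0.122. Such correlations cannot show whether samples shared an animal. The slide could not be fitted as a block where each group of a comparison had a slide of its own. Dim Hox genes lie within the range of background signal, which limits every fold given.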
